A study of Mus musculus with 18 samples.

Results

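The genes of 10 enzymes that write or erase acetyl marks on histones and methyl marks on DNA were followed through a gene expression study of mouse sensory ganglia. They are the deacetylases Hdac1, Hdac2, Hdac3, Hdac4, Hdac5 and Hdac6, the acetyltransferases Kat2b, Ep300 and Crebbp, and the DNA demethylation enzyme Tet3. They were taken by symbol from the deposited count table, where all 10 were found among 15730 genes. The rule is a list of names and uses no expression value, but the names were chosen with earlier results of these data known. In the mouse genome (GRCm38, GENCODE M21) Hdac1 lies on chromosome 4, Hdac2 on 10, Hdac3 on 18, Hdac4 on 1, Hdac5 on 11, Hdac6 on X, Kat2b on 17, Ep300 on 15, Crebbp on 16 and Tet3 on 6. RNA was sequenced from dorsal root ganglia (DRG), which hold the cell bodies of sensory neurons together with glia, vessels and immune cells. The mice were C57BL/6, aged 6 to 8 weeks, and the ganglia were those that feed the sciatic nerve, taken 24 h after surgery. Each sample pooled ganglia of 2 mice, and each of the 6 groups had 3 samples.

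Sham_Saline mice had a sham operation with saline, and SNA_Saline mice had a sciatic nerve injury with saline, which damages the peripheral branch of these neurons. SNA_NAC mice had the same nerve injury with 30 mM N-acetyl-cysteine, an antioxidant. Sham_H2O2 mice had the sham operation with 13 mM hydrogen peroxide, an oxidant. DCA mice had a spinal dorsal column injury, which damages the central branch, and LAM mice had a laminectomy, the opening of the vertebra without that injury. No transgene or mutation is named in the labels. Nothing in the labels says that the pools came from different mice, so p-values measure the spread between these samples. The replicate number is also the sequencing lane, with 6 libraries on each of 3 lanes.

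Histone acetyltransferases place acetyl groups on lysines of histone tails, which loosens chromatin and recruits bromodomain proteins, and histone deacetylases take them off again. TET enzymes oxidise 5-methylcytosine, the first step in removing methyl marks from cytosines in CG pairs. In DRG neurons these enzymes have been studied as regulators of the regenerative programme after peripheral nerve injury. For Hdac5 and Kat2b much of that work concerns the protein, its place in the cell and its modification, which mRNA levels do not measure.

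Among the 10 genes, Tet3 was the one called by edgeR's quasi-likelihood test on the counts. It rose 1.78-fold after sciatic nerve injury with saline and 1.91-fold after the same injury with N-acetyl-cysteine, both against Sham_Saline. The other 9 did not pass that test in any of the 7 comparisons. Other fits of all 18 samples did call Hdac5 in 3 of the comparisons and Hdac4 in 1, with the values given under those genes. The promoters of Tet3, the gene that rose, and of Hdac5, the gene whose level ranged most widely, are given below as RefSeq has them on GRCm38.p6, from 250 bases before to 50 after the start, with CG pairs in capitals, since these are the sites where DNA methylation is placed and removed.
Tet3: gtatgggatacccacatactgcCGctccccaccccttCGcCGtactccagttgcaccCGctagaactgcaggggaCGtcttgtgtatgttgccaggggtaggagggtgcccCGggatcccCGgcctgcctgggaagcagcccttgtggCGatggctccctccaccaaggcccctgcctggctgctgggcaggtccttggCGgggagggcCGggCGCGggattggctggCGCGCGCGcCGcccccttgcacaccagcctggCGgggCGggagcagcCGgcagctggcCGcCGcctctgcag
Hdac5: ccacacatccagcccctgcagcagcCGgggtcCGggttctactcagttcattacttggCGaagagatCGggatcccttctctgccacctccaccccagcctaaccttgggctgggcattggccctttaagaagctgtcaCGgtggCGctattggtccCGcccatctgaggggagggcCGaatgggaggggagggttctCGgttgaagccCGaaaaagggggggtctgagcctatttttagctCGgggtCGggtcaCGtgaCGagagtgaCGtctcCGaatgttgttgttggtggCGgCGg
The Tet3 window lies at chr6:83441629-83441928 on the minus strand, and the Hdac5 window at chr11:102230123-102230422, also on the minus strand. In GENCODE M21 the Tet3 gene spans chromosome 6 from 83362373 to 83459084, so its RefSeq start lies 17406 bases inside the annotated gene. The RefSeq start of Hdac5 lies 6 bases upstream of its annotated gene, which spans chromosome 11 from 102194432 to 102230166. The Tet3 window held 22 CG pairs and was 71.3% G or C, and the Hdac5 window held 18 and was 60.7% G or C. The median of 32851 RefSeq mouse promoters was 7 CG pairs, and 23.1% of them held at least as many as Tet3. Promoters of 8 of the 10 genes were matched, in 9 windows.

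In all, 3 motifs were searched on both strands of these windows. The AP-1 motif TGANTCA, bound by Jun and its partners, was found in the first of the Kat2b windows alone, and 7.81% of all promoters of that length held it. The cyclic AMP response element TGACGTCA was found in none of the 9 windows, against 1.79% of all promoters. Its core TGACG, which is also part of the full element, occurred 3 times in Hdac4, 2 times in Hdac5 and 1 time in that Kat2b window, and 20.8% of all promoters held it. Tet3 had no match to any of these, which says only that those letters are not in its window.

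Deposited FPKM values, which scale reads by gene length and library, put the genes in an order of level. Hdac2, a class I deacetylase of nuclear corepressor complexes, stood highest at 35.7 ± 4.63 FPKM (SD, n = 18 samples). Hdac3, the catalytic subunit of the NCoR and SMRT corepressors, followed at 21.8 ± 1.64 FPKM. Both stood above the next gene in 18 of 18 samples. Kat2b, also known as PCAF, had 10.2 ± 1.36 FPKM and Hdac1, the close relative of Hdac2, had 10.1 ± 0.654 FPKM. These neighbours did not separate, since Kat2b was the higher in 11 of 18 samples.

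Lower in the order of FPKM stood Hdac4 at 5.25 ± 0.801 FPKM, a class IIa deacetylase that shuttles between nucleus and cytoplasm. Its place is uncertain, because the count table gave it the lowest level of the 10, a median of 0.453 CPM per kb of its longest transcript against 0.55 for Crebbp. Next in FPKM came Hdac6 at 3.53 ± 0.634 FPKM, a cytoplasmic enzyme that deacetylates tubulin. The acetyltransferase Ep300 had 2.34 ± 0.363 FPKM, Hdac5, the other class IIa enzyme here, 2.14 ± 1.03 FPKM, and Tet3 1.83 ± 0.611 FPKM. Ep300 was above Hdac5 in 12 of 18 samples and Hdac5 above Tet3 in 11 of 18, so this trio did not separate beyond its spread. Crebbp, the paralog of Ep300, was the lowest in FPKM at 0.811 ± 0.259 and was below Tet3 in 18 of 18 samples. Its counts were small, from 23 to 344 in a library.

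**Figure D1:**
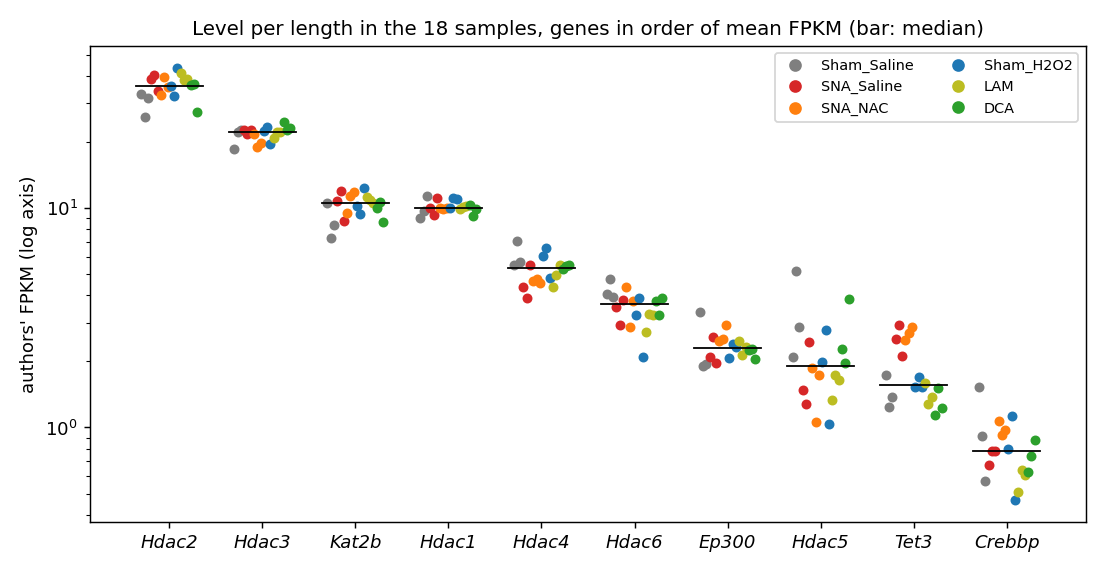
Deposited FPKM (log axis) of the 10 genes, ordered by mean over 18 samples. Points are samples, coloured by group and ordered by group within each gene, and bars are medians; Hdac2 lies highest and Crebbp lowest in FPKM, whereas Hdac4 was lowest per length in the count table.

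All levels below are CPM, read counts scaled to a common library size after TMM normalization, and folds are from edgeR's quasi-likelihood test on the counts with Benjamini-Hochberg adjustment over all 15730 genes at a threshold of 0.05. Library totals ran from 6472476 to 42435331 counts. Atf3, an injury-induced transcription factor, had a level of 62.6 ± 8.81 CPM in the Sham_Saline samples, which rose to 444 ± 21.5 CPM with the nerve injury and to 447 ± 33.0 CPM where N-acetyl-cysteine was added (mean ± SD of 3 samples). The 4 genes listed to check the injury labels summed to 856 to 910 CPM in SNA_Saline and 790 to 871 CPM in SNA_NAC. Their sums were 153 to 204 CPM in Sham_Saline, 220 to 285 in Sham_H2O2, 109 to 124 in LAM and 120 to 148 in DCA. The surgical controls thus differed in these genes, and 1 of 4 was called higher in Sham_Saline against LAM, where 0.0699% of all genes were called. All 10 listed sensory neuron markers were in the table and summed to between 8165 and 14209 CPM. The spread between samples was widest in Sham_Saline, where the median gene's SD of log2 CPM was 0.295, against 0.12 in LAM. Sham_Saline held the highest or the lowest of the 18 values for 9 of the 10 enzyme genes and for 69% of all genes.

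**Figure D2:**
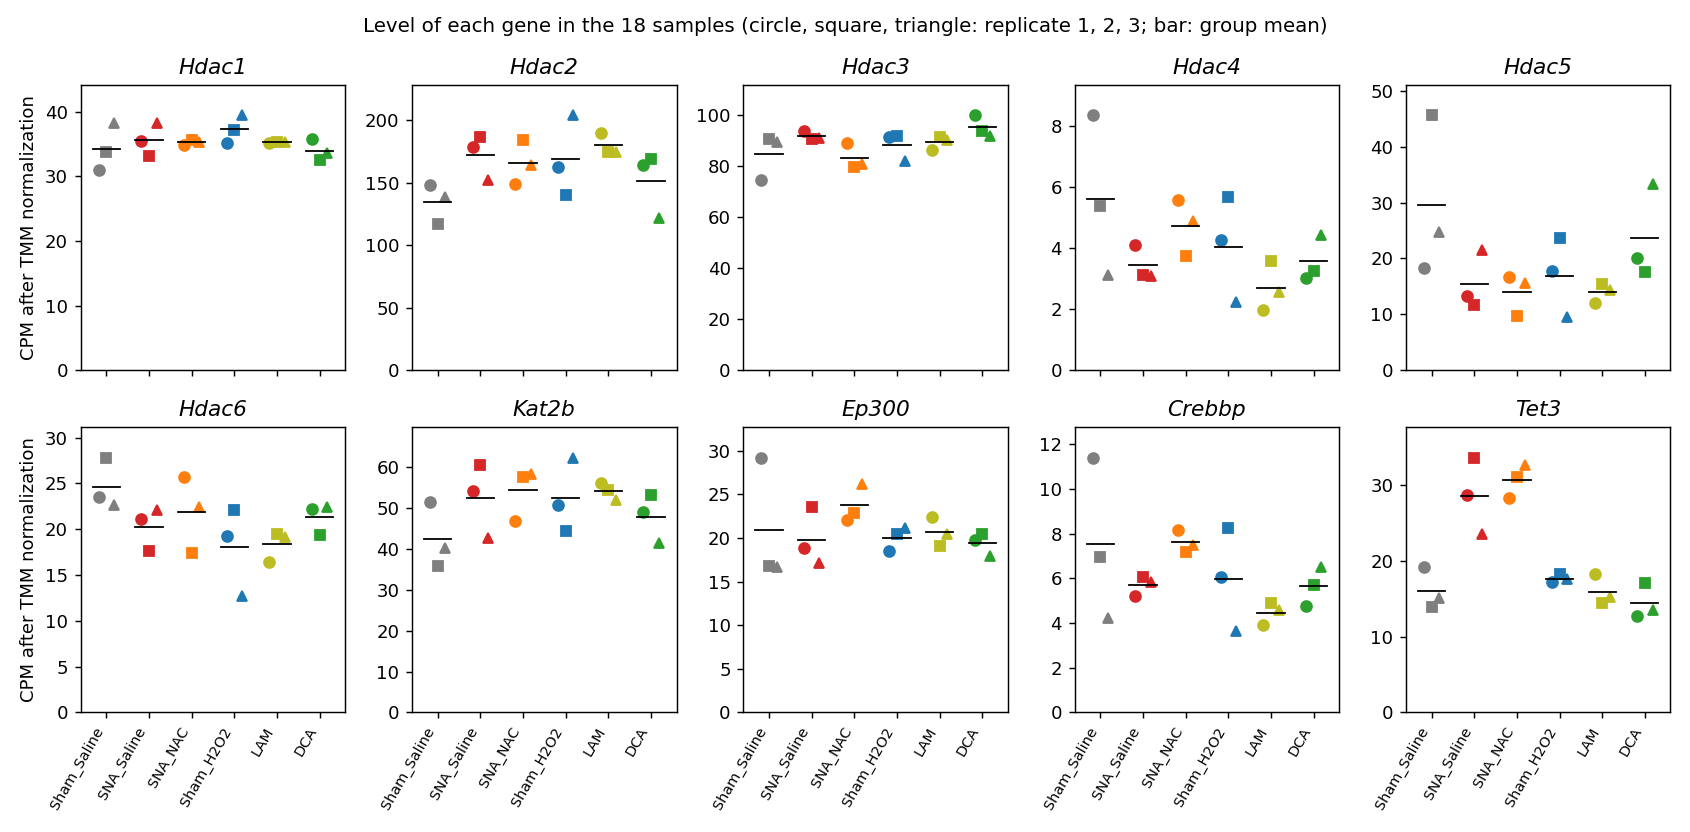
CPM of each gene in all 18 samples; the axis starts at 0 in each panel. Circles, squares and triangles are replicates 1, 2 and 3 and bars are group means; for Tet3 the 6 samples with sciatic nerve injury, from 23.5 to 33.6 CPM, lie above the other 12, from 12.7 to 19.2 CPM.

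Tet3 measured 19.2, 13.9 and 15.1 CPM in the Sham_Saline samples. After sciatic nerve injury with saline it measured 28.7, 33.6 and 23.5 CPM. With N-acetyl-cysteine at the injury it measured 28.3, 31.1 and 32.6 CPM. Every injured nerve sample was thus above every sham sample, in both arms. In the other 3 groups no sample was above the highest sham: 17.2, 18.2 and 17.6 CPM in Sham_H2O2, 18.2, 14.4 and 15.2 CPM in LAM, and 12.7, 17.1 and 13.5 CPM in DCA. The 6 samples with sciatic nerve injury had a median of 29.9 CPM, and the other 12 had a median of 16.2 CPM with no overlap between the sets. The share of all genes that part these 6 from the other 12 is not given here. Between SNA_Saline and Sham_Saline alone, 19.1% of all genes had no overlap.

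The change from Sham_Saline to SNA_Saline was a log2 fold change of 0.83 (SE 0.16, 95% interval 0.50 to 1.17, edgeR adjusted p = 0.007). Tet3 was the only one of the 10 genes called, 1 of 10, where 2.73% of all genes were called and 2.16% were called higher. Any pairing of samples gives a rise, since SNA_Saline and Sham_Saline did not overlap. Lane by lane the change was 0.58, 1.27 and 0.64 on the log2 scale. Without SNA_Saline replicate 2, the library with the highest Tet3 level, it was 0.70 with an edgeR adjusted p = 0.0516, and in a fit of only the 2 groups the adjusted p was 0.215. Over 15 alternative fits the adjusted p ran from 0.0001 to 0.215, and Tet3 was called in 13 of them. The fit with no filter, which is among them, repeats the main fit. In these whole ganglia, more RNA per cell and more cells of a type that expresses Tet3 cannot be told apart.

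Against the same Sham_Saline samples, which both comparisons share, SNA_NAC had a log2 fold change of 0.93 (SE 0.16, 95% interval 0.60 to 1.26, edgeR adjusted p = 0.00252). Again Tet3 was the 1 of 10 called, where 3.32% of all genes were called and 2.47% were called higher. At an unadjusted p under 0.05 stood 3 of 10 (Hdac5, Kat2b and Tet3), against 27.6% of all genes, and 3 of 10 (Hdac2, Hdac5 and Tet3) had no overlap, against 21.2%. The lanes gave 0.56, 1.16 and 1.11. It was called in 14 of 15 alternative fits, the exception being the fit of only the 2 groups, with an adjusted p of 0.0739. Between the injured groups themselves, N-acetyl-cysteine against saline, the log2 difference in Tet3 was 0.10 (SE 0.16, 95% interval -0.23 to 0.43, edgeR adjusted p = 1).

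Tet3 did not pass the test after the central injury. From LAM to DCA the log2 fold change was -0.15 (SE 0.16, 95% interval -0.48 to 0.19, edgeR adjusted p = 0.686), and the sets of samples overlapped. The difference between the sciatic and the dorsal column changes was tested as an interaction and came to 0.98 on the log2 scale (SE 0.22, 95% interval 0.50 to 1.45, edgeR adjusted p = 0.0386), where 1.61% of all genes were called and 1.23% were called positive. At an unadjusted p under 0.05 stood 4 of 10, against 31.4% of all genes. By lane the Tet3 difference was 1.10, 1.03 and 0.81. These signs add little, because every SNA_Saline sample lay above every Sham_Saline sample.

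The call of that difference was not steady, and its size ran from 0.60 to 1.36 over 21 alternative fits. With the lane as a replicate block it was again 0.98 with an edgeR adjusted p = 0.069, and it was called in 8 of 21 alternative fits with adjusted p between 0.0033 and 0.126. The call held without Sham_Saline replicate 1 (0.0123), SNA_Saline replicate 3 (0.0242) or DCA replicate 2 (0.0316). It was lost without Sham_Saline replicate 2 or 3, SNA_Saline replicate 1 or 2, any LAM replicate, or DCA replicate 1 or 3, where Tet3's difference stayed between 0.86 and 1.06 and the adjusted p between 0.0604 and 0.126. Sciatic and dorsal column samples also differ in their surgical control. Tet3 did not separate those controls, with a log2 difference of 0.01 between Sham_Saline and LAM (SE 0.16, 95% interval -0.32 to 0.35, edgeR adjusted p = 0.96).

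Hydrogen peroxide at the sham nerve gave Tet3 a log2 difference of 0.14 (SE 0.16, 95% interval -0.20 to 0.48, edgeR adjusted p = 0.662). The 3 Sham_H2O2 samples spanned 17.2 to 18.2 CPM, inside the sham range of 13.9 to 19.2 CPM.

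The other TET genes were lower per length than Tet3. In FPKM, Tet3 went from 1.45 ± 0.253 in Sham_Saline to 2.52 ± 0.401 in SNA_Saline and 2.69 ± 0.185 in SNA_NAC (SD, n = 3 each). Tet2 measured 0.658 ± 0.235, 0.725 ± 0.0821 and 0.98 ± 0.0584 FPKM in the same groups, and Tet1 0.345 ± 0.178, 0.313 ± 0.0568 and 0.387 ± 0.0356 FPKM. Neither passed the test after sciatic injury, with log2 fold changes on the counts of 0.17 (SE 0.25) for Tet2 and -0.11 (SE 0.29) for Tet1. Whether Tet3 differed from them in its change was not tested.

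The 3 genes nearest to Tet3 in pattern were found over the 18 samples, by the root mean square difference of log2 CPM after centring each gene. They were Hsd17b7, an enzyme of cholesterol synthesis, at 0.0984, Pigf, which acts in the making of membrane anchors, at 0.112, and Mapk6, an atypical MAP kinase, at 0.119. The median over 12991 genes with a mean count of at least 50 was 0.497. Each had log2 fold changes after sciatic injury near that of Tet3, at 0.72, 0.75 and 0.76, and from LAM to DCA at -0.14, 0.02 and -0.11. As with Tet3, the 6 nerve-injury samples of each gene lay above the other 12. These likenesses follow from picking the genes by their closeness to Tet3 over the same 18 samples.

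**Figure D3:**
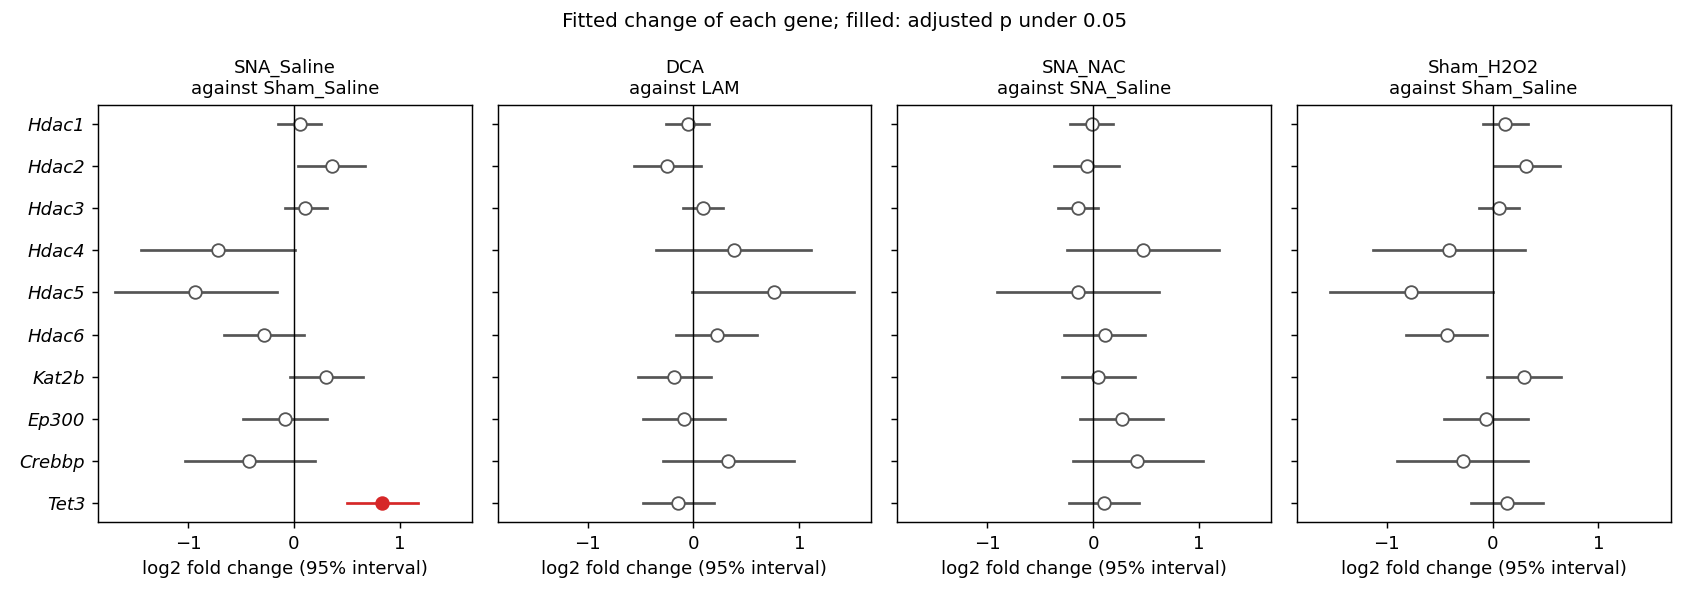
Log2 fold change with 95% interval for the 10 genes in 4 comparisons, from the edgeR fit. Filled red marks an adjusted p under 0.05, which is Tet3 in SNA_Saline against Sham_Saline alone; Hdac4, Hdac5 and Crebbp have the widest intervals.

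Hdac1 and Hdac3 were the steadiest of the deacetylases. Hdac1 lay between 30.9 and 39.4 CPM in all 18 samples, a 1.28-fold range, and Hdac3 between 74.6 and 100 CPM, a 1.34-fold range. After sciatic injury the log2 difference was 0.06 for Hdac1 (95% interval -0.15 to 0.26) and 0.11 for Hdac3 (95% interval -0.08 to 0.31). The intervals allow at most a 1.20-fold increase of Hdac1 and a 1.24-fold increase of Hdac3. For both genes the lowest of all values was that of Sham_Saline replicate 1.

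Hdac2 measured 148, 117 and 139 CPM in Sham_Saline and 179, 187 and 152 CPM in SNA_Saline. These samples did not overlap, yet the log2 difference of 0.36 (SE 0.15, 95% interval 0.04 to 0.67) did not pass the adjusted test (edgeR adjusted p = 0.187). LAM had 190, 175 and 175 CPM without an injury, above all 3 shams, and DCA had 164, 169 and 122 CPM. So Hdac2 stood low in Sham_Saline against LAM as well, by a log2 difference of -0.41 (SE 0.15, edgeR adjusted p = 0.108). Its transcript is 41.9% G or C, and 12.1% of genes had a lower share. With each gene's GC share and length entered as offsets in the fit, both differences were smaller. They were then 0.12 (SE 0.06, edgeR adjusted p = 0.239) after sciatic injury and -0.14 (SE 0.06, edgeR adjusted p = 0.203) in Sham_Saline against LAM. Kat2b was the gene nearest to Hdac2 in its pattern among the 10, with a root mean square difference of 0.0882.

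Hdac6 ran from 12.7 to 27.8 CPM. It measured 23.5, 27.8 and 22.6 CPM in Sham_Saline and 21.1, 17.6 and 22.1 CPM in SNA_Saline, with no overlap and a log2 difference of -0.28 (SE 0.18, edgeR adjusted p = 0.342). Sham_H2O2 had 19.3, 22.1 and 12.7 CPM, also below every sham sample, with a log2 difference of -0.43 (SE 0.18, edgeR adjusted p = 0.449). At an unadjusted p under 0.05 after sciatic injury stood 3 of 10 (Hdac2, Hdac5 and Tet3), against 22.5% of all genes. Of the 10 genes, 3 had no overlap between SNA_Saline and Sham_Saline (Hdac2, Hdac6 and Tet3), where 19.1% of all genes had none. In Sham_H2O2 against Sham_Saline Hdac6 was the 1 gene of 10 without overlap, where 5.43% of all genes had none.

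Hdac5 varied more than any other of the genes, 4.78-fold over the samples. It measured 18.3, 45.6 and 24.8 CPM in Sham_Saline, 13.3, 11.7 and 21.5 CPM in SNA_Saline, and 16.7, 9.70 and 15.6 CPM in SNA_NAC. Sham_H2O2 had 17.7, 23.6 and 9.53 CPM, LAM had 12.1, 15.4 and 14.4 CPM, and DCA had 20.1, 17.6 and 33.4 CPM. Within Sham_Saline the highest sample stood far above the other 2, and the SNA_Saline samples overlapped with the shams. The log2 differences were -0.93 (SE 0.36, edgeR adjusted p = 0.169) after sciatic injury and 0.76 (SE 0.36, edgeR adjusted p = 0.624) after dorsal column injury. Their difference was -1.69 (SE 0.51, edgeR adjusted p = 0.0837), negative in 3 of 3 lanes, and DESeq2 called it at -1.70 (adjusted p = 0.0227). The lane signs add little, because every DCA sample lay above every LAM sample. Between SNA_NAC and Sham_Saline the log2 difference was -1.07 (SE 0.36, edgeR adjusted p = 0.101), and DESeq2 called it at -1.10 (adjusted p = 0.0359).

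The transcript of Hdac5 is rich in G and C, at 59.8%, and 95.6% of genes had a lower share. Libraries differed in how their counts depended on that share. Expressed as the slope of a sample's log2 CPM with the transcripts' GC share, per SD of that share and relative to the mean of the samples, it was highest in Sham_Saline replicate 2 (0.43) and DCA replicate 3 (0.25) and lowest in Sham_H2O2 replicate 3 (-0.22). These are the samples with the highest, second highest and lowest Hdac5. With each gene's GC share and length entered as offsets, the change after sciatic injury was -0.36 (SE 0.17, edgeR adjusted p = 0.209) and that after dorsal column injury 0.36 (SE 0.17, edgeR adjusted p = 0.677). The offsets gave -0.56 (SE 0.16) in SNA_NAC against Sham_Saline, which edgeR then called (adjusted p = 0.0422), and adding the replicate block gave -0.55 (adjusted p = 0.0535). The difference between the injuries was -0.72 with the offsets (SE 0.23, edgeR adjusted p = 0.0758). Sham_Saline replicate 2 also held the most skeletal muscle marker RNA, a sum of 1299 CPM against 7.26 to 516 CPM in the other samples. The parts of the GC slope and of muscle RNA in the Hdac5 level were not tested, and this sample was highest in both.

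The same offsets acted otherwise on Tet3, whose transcript is 53.4% G or C. Its change after sciatic injury was 1.08 (SE 0.18, edgeR adjusted p = 0.000762) with them, and its difference between the injuries 1.36 (SE 0.25, edgeR adjusted p = 0.00473). The offsets also moved its difference between Sham_Saline and LAM from 0.01 to -0.33 (SE 0.18, edgeR adjusted p = 0.293). Calls among all genes after sciatic injury and in the difference between the injuries grew with the offsets too, as given below.

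**Figure D4:**
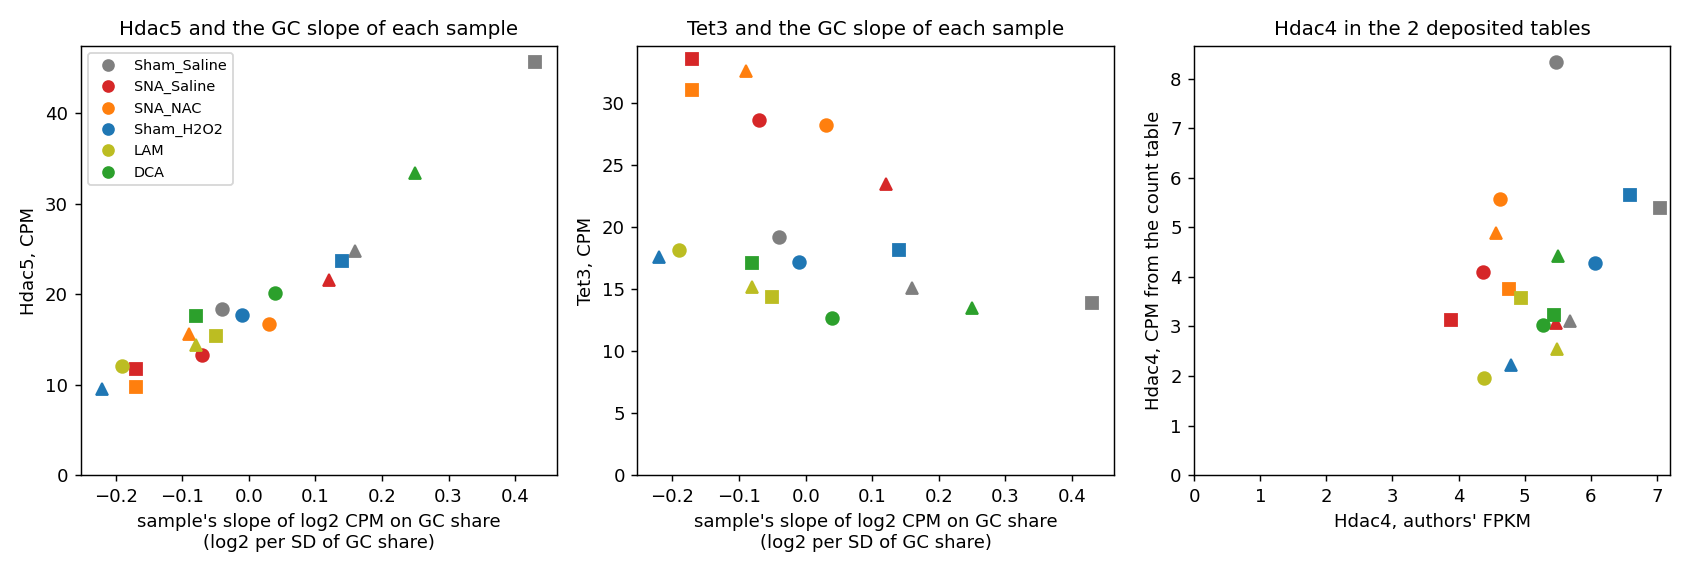
Left and middle, CPM of Hdac5 and Tet3 against the slope with GC share of that sample; right, CPM of Hdac4 from the count table against its deposited FPKM. Colours are groups and shapes replicates; Hdac5 is highest at the slope of 0.43 and lowest at -0.22, and Tet3 in the 6 nerve-injury samples lies above the other 12.

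Hdac4 has to be read with care, because its values in the deposited tables part ways. In the count table it had only 14 to 235 counts in a library, from 1.97 to 8.34 CPM. The ratio of CPM to FPKM varied 3.39-fold over the samples, where it varied 1.07-fold for each of the other 9 genes. Hdac4 was 1 of 91 of 15730 genes that departed in this way by more than 0.01 on the log2 scale. Its counts were also low for its FPKM. Per kb of the longest transcript, the median CPM per FPKM was 0.0918 for Hdac4 and 0.706 to 1.72 for the others. The FPKM table lists Hdac4 as 2 Ensembl features whose values stand in a constant ratio of 1.65, and the FPKM given here are those of the feature with the count table's identifier. In GENCODE M21 the predicted gene Gm26720 overlaps its exons on the opposite strand, and whether strand was used in counting is not given in the sources used here.

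From the counts, Hdac4 measured 8.34, 5.39 and 3.12 CPM in Sham_Saline and 4.09, 3.13 and 3.07 CPM in SNA_Saline. The log2 difference was -0.72 (SE 0.34, edgeR adjusted p = 0.225), and from the FPKM values, on the log2(FPKM + 0.1) scale in limma, it was -0.40 (SE 0.15, adjusted p = 0.16). Between Sham_Saline and LAM the counts gave 1.04 (SE 0.34, edgeR adjusted p = 0.104) and the FPKM values 0.29 (SE 0.15, limma adjusted p = 0.202). The direction was shared in both comparisons and the size was not.

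None of the 3 acetyltransferases passed the test. Kat2b measured 51.5, 35.7 and 40.1 CPM in Sham_Saline and 54.2, 60.5 and 42.6 CPM in SNA_Saline, which overlap. The log2 difference was 0.30 (SE 0.16, 95% interval -0.04 to 0.65, edgeR adjusted p = 0.272), and in SNA_NAC against Sham_Saline it was 0.35 (SE 0.16, edgeR adjusted p = 0.172). Ep300 measured 29.2, 16.8 and 16.7 CPM in Sham_Saline, where 1 sample was high, and 18.8, 23.5 and 17.1 CPM in SNA_Saline. Its log2 difference of -0.08 (SE 0.18, edgeR adjusted p = 0.795) turned to 0.23 without Sham_Saline replicate 1.

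Crebbp measured 11.4, 6.95 and 4.21 CPM in Sham_Saline and 5.21, 6.05 and 5.85 CPM in SNA_Saline. Its sham samples lay on both sides of the injured ones, and the log2 difference was -0.42 (SE 0.29, 95% interval -1.03 to 0.20, edgeR adjusted p = 0.379). With N-acetyl-cysteine it measured 8.15, 7.20 and 7.51 CPM, above all 3 injured samples with saline, with a log2 difference of 0.42 (SE 0.29, 95% interval -0.19 to 1.04, edgeR adjusted p = 1). Sham_Saline replicate 1 was the highest of the 18 samples for Crebbp, Ep300 and Hdac4.

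In SNA_NAC against SNA_Saline edgeR called 0 of the 10 genes and 0% of all genes, and at an unadjusted p under 0.05 it took 0 of 10 against 2% of all genes. DESeq2 also called 0 of 10. Hdac3 and Crebbp, 2 of 10, had no overlap between the arms, where 14.9% of all genes had none. Hdac3 was lower with N-acetyl-cysteine by a log2 difference of -0.14 (SE 0.09, 95% interval -0.33 to 0.05). The median log2 difference of the 10 genes was 0.08, and that of all genes -0.00.

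After dorsal column injury edgeR called 0 of 10 and 0% of all genes, with 0 of 10 at an unadjusted p under 0.05 against 5.04% of all genes. DESeq2 called 0 of 10. Hdac2, Hdac3 and Hdac5, 3 of 10, had no overlap between DCA and LAM, where 21.7% of all genes had none. Hdac3 measured 100, 94.0 and 91.9 CPM in DCA and 86.4, 91.4 and 90.4 CPM in LAM, a log2 difference of 0.09 (SE 0.09, edgeR adjusted p = 0.664). The median of the 10 genes was 0.02 and that of all genes -0.00.

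With hydrogen peroxide edgeR again called 0 of 10 and 0% of all genes, and DESeq2 called 0 of 10. At an unadjusted p under 0.05 stood 3 of 10 (Hdac2, Hdac5 and Hdac6), against 9.15% of all genes. Hdac2 measured 163, 140 and 204 CPM, a log2 difference of 0.32 (SE 0.15, edgeR adjusted p = 0.449), and Hdac5 had one of -0.77 (SE 0.36, edgeR adjusted p = 0.449). With the GC and length offsets the log2 difference was 0.12 (SE 0.06) for Hdac2 and -0.27 (SE 0.17) for Hdac5. The comparison with hydrogen peroxide uses the same 3 Sham_Saline samples as the sciatic ones.

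The surgical controls themselves, Sham_Saline against LAM, gave edgeR calls for 0 of 10 and for 0.0699% of all genes. At an unadjusted p under 0.05 stood 6 of 10, against 30.3% of all genes, and DESeq2 called 2 of 10, Hdac4 at 1.04 (adjusted p = 0.0479) and Hdac5 at 1.08 (adjusted p = 0.0465). Hdac2, Hdac5, Hdac6 and Kat2b, 4 of 10, had no overlap, where 30.6% of all genes had none. Hdac5 was higher in Sham_Saline by a log2 difference of 1.08 (SE 0.36, edgeR adjusted p = 0.104), and with the GC and length offsets by 0.34 (SE 0.16, edgeR adjusted p = 0.247).

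A single library decided several of these calls. Without Sham_Saline replicate 1, edgeR called Hdac5 beside Tet3 after sciatic injury, with a log2 fold change of -1.18 (SE 0.36, adjusted p = 0.0429). In SNA_NAC against Sham_Saline it then called Hdac5 lower at -1.32 (SE 0.36, adjusted p = 0.0127), Kat2b higher at 0.52 (SE 0.16, adjusted p = 0.0241) and Ep300 higher at 0.50 (SE 0.14, adjusted p = 0.013). Hdac2, Hdac5 and Kat2b were called in Sham_Saline against LAM, and those 3 with Tet3 in the difference between the injuries. Calls among all genes grew as well, to 16.2% after sciatic injury (2 of 10 enzyme genes), 37.3% in SNA_NAC against Sham_Saline (4 of 10), 31.8% in Sham_Saline against LAM (3 of 10) and 29.2% in the difference (4 of 10). The shares of the enzyme genes thus lie near those of all genes.

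Set beside the wider machinery, 46 other genes in 4 lists, few calls were made. After sciatic injury 1 of 46 rose and 0 fell, beside 2.16% of all genes that rose and 0.572% that fell. The one that rose was Mbd2, a protein that binds methylated CG pairs and brings in a deacetylase complex. It measured 66.8, 60.9 and 63.5 CPM in Sham_Saline and 78.3, 86.9 and 75.5 CPM in SNA_Saline, with no overlap and a log2 fold change of 0.33 (SE 0.08, edgeR adjusted p = 0.0416). Its samples in LAM had 76.4, 76.2 and 69.7 CPM and those in DCA 66.3, 68.0 and 65.5 CPM. The difference between the injuries was 0.49 (edgeR adjusted p = 0.0486). With a replicate block the edgeR adjusted p was 0.0756 after sciatic injury and 0.0864 for the difference. With the GC and length offsets the values were 0.62 (SE 0.22, adjusted p = 0.101) and 1.04 (SE 0.31, adjusted p = 0.0593). Mbd2 was called after sciatic injury in 6 of 15 alternative fits and for the difference in 4 of 21.

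In SNA_NAC against Sham_Saline 0 of 46 rose and 1 fell, beside 2.47% and 0.846% of all genes. It was Hdac11, the class IV deacetylase. It measured 70.6, 98.7 and 89.6 CPM in Sham_Saline and 63.3, 46.8 and 53.0 CPM in SNA_NAC, a log2 fold change of -0.66 (SE 0.17, edgeR adjusted p = 0.0386). With a replicate block the edgeR adjusted p was 0.0687. The call held in 5 of 15 alternative fits, with adjusted p from 0.0049 to 0.202 and log2 values from -0.79 to -0.23. Hdac11 shares exon sequence with Gm14573 and Gm44002 on the opposite strand, so its reads are uncertain to that extent.

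By list, after sciatic injury, 0 of the 12 other deacetylases (Hdac7 to Hdac11 and the sirtuins) were called in either direction. Their median log2 difference was -0.47 and 9 of 12 were negative, beside a median of -0.03 over all genes and -0.01 over the 10 enzyme genes. Without an injury, the same 12 had a median of -0.35 in Sham_H2O2 against Sham_Saline, with 10 of 12 negative. In Sham_Saline against LAM their median was 0.38, with 10 of 12 positive. All of these comparisons share the Sham_Saline samples. After sciatic injury the 10 other acetyltransferases had 0 calls and a median of -0.09. The 11 bromodomain readers and corepressors had 0 calls and a median of -0.06. The 13 other DNA methylation genes, among them the DNA methyltransferases, had 1 call, Mbd2, and a median of -0.09. For Dnmt3a, which places new methyl marks, the log2 difference was -0.13 (SE 0.12, edgeR adjusted p = 0.494), and for Dnmt1, which copies them, -0.13 (SE 0.18, edgeR adjusted p = 0.658).

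**Figure D5:**
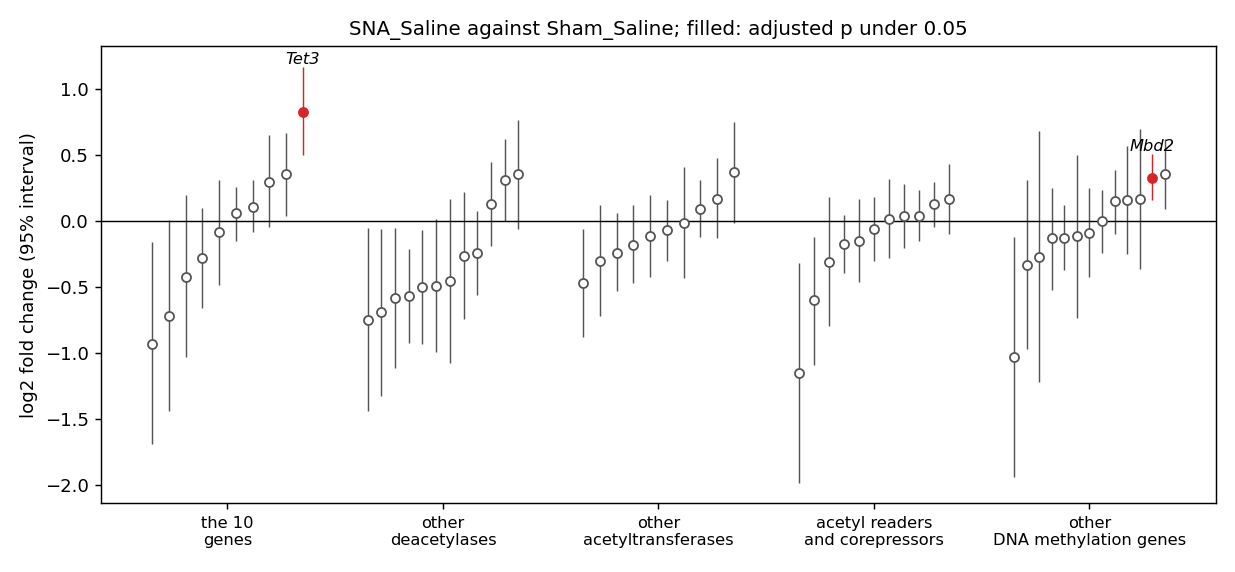
Log2 fold change with 95% interval in SNA_Saline against Sham_Saline for the 10 genes and the 46 genes of the 4 wider lists, sorted within each list. Filled red marks an adjusted p under 0.05, which is Tet3 and Mbd2.

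No marker of the 10 listed cell types passed the test after sciatic injury or in the difference between the injuries. The 10 sensory neuron markers had a median log2 difference of -0.39 after sciatic injury and 0.27 after dorsal column injury. Without an injury, their median was -0.27 in Sham_H2O2 against Sham_Saline and 0.46 in Sham_Saline against LAM. The summed level of these markers was 9688 to 14209 CPM in Sham_Saline and 8939 to 10117 CPM in SNA_Saline. Satellite glia markers summed to 880 to 1069 CPM and 1020 to 1065 CPM in these groups, and macrophage markers to 44.0 to 62.6 CPM and 48.1 to 54.7 CPM. Schwann cell markers summed to 6319 to 10390 CPM in Sham_Saline and 7988 to 8613 CPM in SNA_Saline. Their median log2 difference was -0.26 after sciatic injury, -0.44 in SNA_NAC against Sham_Saline and 0.59 in Sham_Saline against LAM. Of the 5 neutrophil markers, 1 fell in SNA_NAC against Sham_Saline. The 7 skeletal muscle markers, none of them called, had median log2 differences of -1.42 after sciatic injury, -2.32 in SNA_NAC against Sham_Saline and -1.14 in the difference between the injuries. Their sums were 7.26 to 1299 CPM in Sham_Saline, 26.2 to 291 CPM in SNA_Saline and 34.0 to 110 CPM in SNA_NAC. The part of cell composition in the Tet3, Mbd2 and Hdac11 values was not tested. Of the 4 oligodendrocyte markers, 3 were not in the count table.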

How the data were processed

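RNA from 18 pooled ganglion samples was sequenced from one end with a strand-marking mRNA kit, per the labels' protocols. The authors deposited raw counts per gene, as whole numbers, and FPKM for 45904 features. The submitters' processing notes name TopHat2 2.0.12, Bowtie2 2.2.3, SAMtools 0.1.19, HTSeq 0.6.0 and the build mm10, and give no order. No gene of the count table has a mean under 10.1 counts. Every column was tied to its sample through the column name.

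The main test was edgeR's quasi-likelihood test (version 4.0.16, R 4.3.3) on the counts, with TMM normalization and a groups-only model over the 18 samples. Its filterByExpr step removed none of the 15730 genes. P-values received a Benjamini-Hochberg adjustment. Biological variation between samples was 17.4% (common coefficient). Each SE is the size of the log2 fold change divided by the root of the F statistic, and log2 CPM had a prior count of 2. The fitting code was tested on simulated data.

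The alternatives were DESeq2 1.42.0, a minimum of 10 counts, no filter, only the groups of a comparison, the replicate number as a block, offsets for GC share and length (splines with 5 degrees of freedom, GENCODE M21) with and without the block, limma 3.58.1 on log2(FPKM + 1) and log2(FPKM + 0.1), an adjusted p under 0.10, and leaving out each sample. Because the filter of the main test removed no gene, the fit with no filter repeats the main fit. It is still included in every count of alternative fits. The pairing by number comes from the labels, where it is the lane. Deviations of samples with the same number correlated between -0.65 and 0.56. The enzymes and the lists were chosen with earlier results of these data known. All 10 were described. From the wider lists the genes named were those called in a comparison, and Tet1, Tet2, Dnmt1 and Dnmt3a were added as relatives after their values were seen. For Tet3, the 3 genes nearest in pattern were named.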

Additional observations from a re-analysis of the deposited data

Results flagged for a closer look

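The difference between the change after sciatic nerve injury and the change after dorsal column injury was tested itself, as an interaction in edgeR, and passed for 1 of the 10 enzyme genes and 1 of the 46 wider genes, where it passed for 1.61% of all genes. For Tet3 it was 0.98 on the log2 scale (edgeR adjusted p = 0.0386), with an adjusted p of 0.069 under the replicate block and calls in 8 of 21 alternative fits. For Mbd2 it was 0.49 (edgeR adjusted p = 0.0486), with an adjusted p of 0.0864 under the block and calls in 4 of 21 alternative fits. Its controls lay between 60.9 and 66.8 CPM in Sham_Saline and between 69.7 and 76.4 CPM in LAM, with no overlap.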

How the results depend on the processing

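Under the 7 comparisons the 10 genes gave 70 log2 values, recomputed 1110 times, including the fit with no filter, which repeats the main fit. Of these, 1015 kept direction and side of the threshold, 16 lost a call, 15 gained one and 64 changed sign, and 0 of the sign changes had an adjusted p under 0.05. The cause of the changes below was not tested, except that fits of only the groups of a comparison hold fewer samples.

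Genes called among the 10 became, after sciatic injury, 0 with only the groups, and 0 to 2 with a library left out. In SNA_NAC against Sham_Saline they became 2 with DESeq2, 2 with GC and length offsets, 0 with only the groups, and 1 to 4 with a library left out. In Sham_Saline against LAM they became 2 with DESeq2 and 0 to 3 with a library left out. For the difference between the injuries they became 2 with DESeq2, 0 with the replicate block, 0 with limma on log2(FPKM + 1) and 0 on log2(FPKM + 0.1), 0 with only the groups, 3 at an adjusted p under 0.10, and 0 to 4 with a library left out. Without offsets the block changed no other call among the 10. With the offsets, adding it ended the call of Hdac5 in SNA_NAC against Sham_Saline (adjusted p from 0.0422 to 0.0535).

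Among the 46 wider genes the calls after sciatic injury became 3 with DESeq2, 0 with the replicate block, 2 with the offsets, 3 with offsets and block, 0 with limma on log2(FPKM + 0.1), 0 with only the groups, 2 at an adjusted p under 0.10, and 0 to 13 with a library left out. In SNA_NAC against Sham_Saline they became 4 with DESeq2, 0 with the block, 2 with the offsets, 2 with offsets and block, 0 with limma at either pseudocount (1 and 0.1), 0 with only the groups, 3 at 0.10, and 0 to 25 with a library left out. In Sham_Saline against LAM they became 5 with DESeq2 and 0 to 22 with a library left out. For the difference they became 7 with DESeq2, 0 with at least 10 counts in every sample, 0 with the block, 0 with limma at either pseudocount, 0 with only the groups, 9 at 0.10, and 0 to 18 with a library left out.

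Among all genes the 430 calls after sciatic injury became 863 with DESeq2, 1167 with the offsets, 1014 with offsets and block, 65 with only the groups, 822 at 0.10, and 174 to 2548 with a library left out. The 522 in SNA_NAC against Sham_Saline became 1222 with DESeq2, 1220 with the offsets, 1128 with offsets and block, 68 with only the groups, 1288 at 0.10, and 215 to 5861 with a library left out. The 11 in Sham_Saline against LAM became 1083 with DESeq2, 4 with at least 10 counts, 6 with the block, 26 with the offsets, 23 with offsets and block, 5 with limma on log2(FPKM + 1), 1 with only the groups, and 4 to 5009 with a library left out. The 254 for the difference became 1638 with DESeq2, 118 with the block, 797 with the offsets, 636 with offsets and block, 151 with only the groups, 2398 at 0.10, and 55 to 4600 with a library left out. The 0 after dorsal column injury became 2 with DESeq2 and 1 with offsets and block, and the 0 with hydrogen peroxide became 4 with DESeq2.

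The log2 values that changed sign are given by comparison. In SNA_NAC against SNA_Saline, the offsets, with and without the block, gave 0.04 for Hdac1, -0.02 for Kat2b and -0.10 for Tet3. There the values with a library left out ran from -0.07 to 0.04 for Hdac1, -0.14 to 0.01 for Hdac2, -0.31 to 0.17 for Hdac5, -0.03 to 0.25 for Hdac6, -0.08 to 0.16 for Kat2b and -0.02 to 0.22 for Tet3. In Sham_Saline against LAM the offsets, with and without the block, gave 0.02 for Hdac3, -0.18 for Ep300 and -0.33 for Tet3. With a library left out the range was -0.12 to 0.03 for Hdac1, -0.12 to 0.01 for Hdac3, -0.30 to 0.16 for Ep300 and -0.13 to 0.11 for Tet3. After sciatic injury Ep300 was 0.06 with the offsets, with and without the block. With a library left out the range there was -0.01 to 0.14 for Hdac1, -0.22 to 0.23 for Ep300 and -0.69 to 0.01 for Crebbp. With hydrogen peroxide Ep300 was 0.07 with the offsets and 0.08 with offsets and block. With a library left out the range there was -0.02 to 0.11 for Hdac3, -0.20 to 0.26 for Ep300 and -0.62 to 0.15 for Crebbp. In SNA_NAC against Sham_Saline Crebbp was -0.01 with DESeq2, -0.01 with at least 10 counts and -0.002 with the offsets. With a library left out the range there was -0.03 to 0.13 for Hdac1, -0.11 to 0.02 for Hdac3, -0.52 to 0.15 for Hdac4 and -0.27 to 0.43 for Crebbp. For the difference Hdac3 was -0.01 with at least 10 counts, -0.12 with the offsets, -0.12 with offsets and block and -0.03 with limma at either pseudocount, and -0.06 to 0.07 with a library left out. Ep300 was -0.03 with at least 10 counts, -0.01 with limma on log2(FPKM + 1) and -0.004 on log2(FPKM + 0.1), and -0.14 to 0.32 with a library left out.

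Small counts limit Crebbp and Hdac4 most, with as few as 23 and 14 in a library. Those of Hdac4 were also low for its FPKM, and the reason was not tested.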
